A study of Homo sapiens with 12 samples.

Results

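The genes described are 36 genes of glycolysis and of the response to low oxygen, taken by gene symbol from a table of 45372 genes and described over all 12 libraries of a study of blue light on HaCaT cells, an immortalized line of human skin keratinocytes. Of the 36, 16 encode glycolytic enzymes or the PFKFB enzymes that set their pace, and 20 encode HIF-1α, its hydroxylases and other targets of HIF. The irradiated cultures received light of 408 nm at 4.6 mW/cm2, a dose of 50 J/cm2 per session that had been set to kill 50% of the cells, in 3 sessions a week for up to 14 weeks. They were sampled after 3, 14 and 42 irradiations (blue_3, blue_14 and blue_42), each with an unirradiated culture that bears the same number (dark_3, dark_14 and dark_42). Cells were irradiated in buffered saline and otherwise grew in medium with serum, every group is labelled wild-type, and none is labelled as kept in low oxygen. Each of the 6 groups has 2 libraries, a and b, of poly(A) 3′ end tags, and whether these came from separate cultures is not stated in the labels. The spread that p-values rest on is that between libraries and may be technical.

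Hypoxia-inducible factor (HIF) is a transcription factor whose α subunit is made all the time and, where oxygen is plentiful, is hydroxylated by the EGLN prolyl hydroxylases, bound by VHL and degraded. When oxygen or the hydroxylases' cofactors run short, HIF-1α persists, pairs with ARNT, binds the core letters RCGTG and switches on genes for glucose uptake, glycolysis, lactate export, blood vessel growth, mitochondrial removal and collagen modification. Glycolysis turns glucose into pyruvate and, through LDHA, into lactate. The epidermis has no blood vessels of its own, and its keratinocytes rely heavily on glycolysis and keep part of this programme on.

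The sequences below show the letters that HIF binds in the region before the start sites of 6 members, from RefSeq on GRCh38.p14. MXI1, ANGPTL4 and EGLN3 were chosen because they were called higher than in series 3 in 2 comparisons or more, BNIP3 because it was so in blue_42 alone, and PGK1 and HK2 because theirs were called in no comparison with series 3. This choice was made with the values known. Each is the stretch of up to 250 bases before a RefSeq start that lies before the first annotated exon, taking the start with the most matches. They lie at chr10:110209981-110210230 on the plus strand for MXI1, chr10:131982014-131982173 on the minus strand for BNIP3, chr19:8363905-8364150 on the plus strand for ANGPTL4, chr14:33951082-33951324 on the minus strand for EGLN3, chrX:78103998-78104173 on the plus strand for PGK1 and chr2:74834920-74835169 on the plus strand for HK2. The BNIP3 window lies outside annotated genes, and the others lie in an intron of a longer transcript of the same gene. Capitals mark ACGTG or GCGTG on either strand (CACGT and CACGC when read on the other strand). The letters CACGTG hold ACGTG on both strands and count as 2 matches.
MXI1: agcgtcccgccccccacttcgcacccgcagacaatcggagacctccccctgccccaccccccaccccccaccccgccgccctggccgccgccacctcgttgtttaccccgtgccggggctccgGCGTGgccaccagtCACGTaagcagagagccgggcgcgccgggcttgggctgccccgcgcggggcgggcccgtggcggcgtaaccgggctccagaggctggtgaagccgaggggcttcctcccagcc
BNIP3: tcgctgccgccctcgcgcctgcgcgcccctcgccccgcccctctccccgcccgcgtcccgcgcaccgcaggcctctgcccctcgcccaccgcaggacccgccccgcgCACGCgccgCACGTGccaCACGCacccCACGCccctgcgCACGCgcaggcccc
ANGPTL4: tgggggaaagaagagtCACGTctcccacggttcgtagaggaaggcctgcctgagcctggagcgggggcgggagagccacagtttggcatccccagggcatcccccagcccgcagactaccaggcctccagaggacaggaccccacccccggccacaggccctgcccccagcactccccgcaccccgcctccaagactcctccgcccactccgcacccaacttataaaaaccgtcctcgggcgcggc
EGLN3: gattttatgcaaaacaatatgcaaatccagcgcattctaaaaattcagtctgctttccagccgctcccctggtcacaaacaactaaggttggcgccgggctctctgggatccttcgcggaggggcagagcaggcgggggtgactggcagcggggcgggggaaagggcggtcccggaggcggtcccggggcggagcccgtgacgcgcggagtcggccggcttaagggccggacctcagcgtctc
PGK1: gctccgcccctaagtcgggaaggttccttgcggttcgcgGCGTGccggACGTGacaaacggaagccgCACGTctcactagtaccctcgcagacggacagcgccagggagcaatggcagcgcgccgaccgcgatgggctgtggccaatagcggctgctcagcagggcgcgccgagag
HK2: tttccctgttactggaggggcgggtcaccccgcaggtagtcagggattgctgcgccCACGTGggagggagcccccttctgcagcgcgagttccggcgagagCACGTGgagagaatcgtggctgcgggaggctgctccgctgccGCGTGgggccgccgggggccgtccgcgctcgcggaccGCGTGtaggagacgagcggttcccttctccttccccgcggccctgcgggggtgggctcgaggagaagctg
The window of EGLN3 held no match, while that of HK2 held 6, that of BNIP3 6, that of PGK1 3, that of MXI1 2 and that of ANGPTL4 1. Windows were found for 33 of the 36 members, with none for VEGFA, BNIP3L and NDRG1. Either motif stood in 38 of the 57 windows of these 33 members (66.7%), against 43.2% of all 35116 windows of the table. ACGTG stood in 40.4% of member windows and 18.5% of all, and GCGTG in 40.4% and 32.2%. A match describes the letters only. The windows of SLC2A1, PGAM1, PKM and P4HA2 held none either.

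The 12 libraries held 2073160 to 8183941 counts, the shallowest being blue_14 b, and dark_14 a, blue_14 a and blue_14 b were the 3 shallowest. Of the members, 34 passed the filter on low counts that left 12878 genes for testing, and CA9 and CA12 did not. The identity of the cells was checked with 16 keratinocyte and epithelial markers, all of them detected, which summed to 7284 to 8460 CPM (counts over the TMM-scaled total of each library) in series 3, 7487 to 8882 in series 14 and 6430 to 7287 in series 42. Leukocyte markers summed to 1.59 to 3.71, 3.15 to 6.90 and 3.23 to 4.94 CPM, endothelial markers (5 of 6 detected, TEK at 0) to 0.634 to 1.94, 2.30 to 6.21 and 2.82 to 3.23 CPM, and melanocyte markers (3 of 6, MLANA, TYR and TYRP1 at 0) to 12.1 to 16.3, 10.3 to 16.3 and 12.3 to 15.7 CPM. Neuronal markers (10 of 10) summed to 174 to 238, 98.4 to 175 and 62.0 to 106 CPM, an order set by NEFL, at 146 and 146 CPM in dark_3 and 58.7 and 94.7 in dark_14. Most others went the opposite way between these groups, such as SYT1, at 2.06 and 2.16 CPM in dark_3, 23.5 and 17.8 in dark_14 and 3.84 and 2.60 in dark_42, and SNAP25, at 0.159 and 3.17, 15.2 and 12.01, and 2.43 and 0.650 CPM. Fibroblast markers (9 of 10, mostly FBLN1, POSTN at 0) summed to 49.5 to 86.0, 80.7 to 106 and 55.3 to 74.1 CPM. Erythroid markers (3 of 6, HBG1, HBG2 and ALAS2 at 0) summed to 0.951 to 11.3, 5.16 to 44.1 and 1.17 to 1.94 CPM, and the highest sum was that of dark_14 b. The part of these signals in the differences between series was not tested.

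Together the 36 members took 0.800% to 0.958% of all counts. The plot of summed levels shows that most of this came from the glycolytic enzymes, at 6975 to 9145 CPM per library with the PFKFB enzymes, while the 20 HIF pathway genes summed to 540 to 941 CPM. Since tags are counted at the 3′ end, CPM is not divided by gene length. The HIF pathway sum was 540 to 550 CPM in the 4 libraries of series 3, 688 to 941 CPM in those of series 14 and 644 to 807 CPM in those of series 42, so no later library reached down to series 3. The glycolytic sum was 8693 to 9145 CPM in series 3, 6975 to 8451 CPM in series 14 and 7169 to 8433 CPM in series 42, below series 3 in every later library. GAPDH, PKM and ENO1 made up most of this sum, with means of 2137.1, 2250.6 and 1925.5 CPM in dark_3. Relative to dark_3, the mean log2 level of the 16 genes was -0.021 and 0.027 in dark_14 a and b and 0.067 and -0.028 in blue_14. In series 42 it was -0.044 and 0.014 in dark_42 a and b and 0.0499 and 0.0996 in blue_42. RNA was taken from whole cultures, so fewer cells expressing a gene and less of its RNA per cell cannot be told apart.

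**Figure D1:**
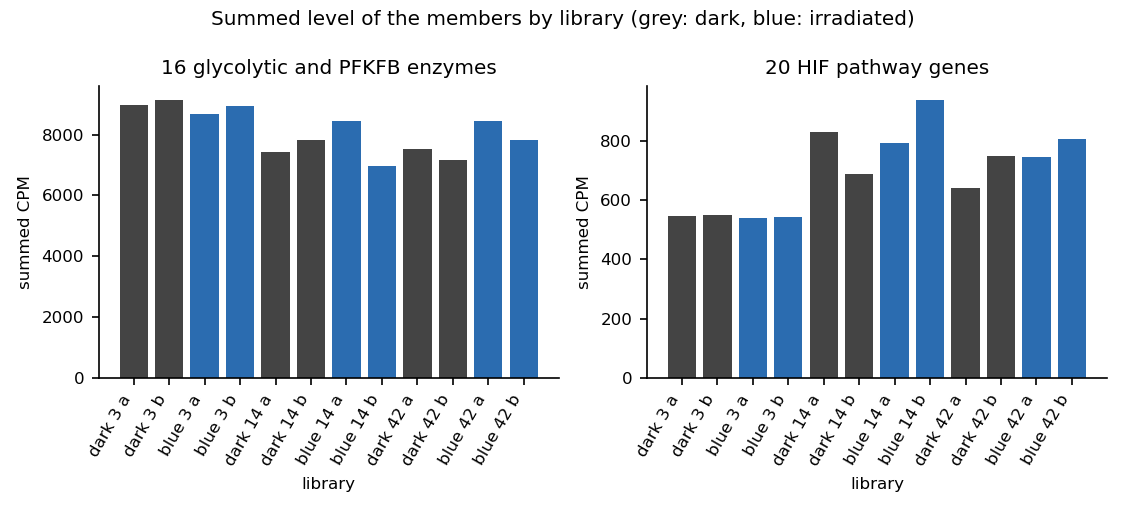
Summed CPM (y axis) of the 16 glycolytic and PFKFB enzymes (left) and the 20 HIF pathway genes (right) in each of the 12 libraries (x axis), grey for dark and blue for irradiated cultures. The left bars of series 14 and 42 lie below all 4 of series 3, and the right bars lie above them.

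Whether blue light changed these genes was tested at each stage by comparing irradiated with dark cultures in edgeR. No member was called at an adjusted p under 0.05 after 3, 14 or 42 irradiations, where 0.0155%, 0% and 1.23% of all tested genes were called. At an unadjusted p under 0.05 the counts were 0, 3 and 7 of 34, and DESeq2 also called 0 each time. The median log2 difference of the members was -0.05, 0.10 and 0.07, against 0.01, -0.01 and -0.00 for all tested genes, and 13, 25 and 20 of the 34 were above 0. Irradiated and dark libraries did not overlap for 16 members after 3 irradiations (7 higher and 9 lower, beside 23.7% and 19.9% of all tested genes), for 11 after 14 (9 and 2, beside 16.6% and 16.6%) and for 14 after 42 (11 and 3, beside 21.3% and 20.9%), and in either direction for 43.6%, 33.2% and 42.2% of all tested genes. The pointwise 95% interval of the log2 difference stayed between -1 and 1 for 28, 27 and 28 of the 34, while it was wider for EGLN3, PFKFB4, BNIP3 and ANKRD37 at each stage and for PGAM1, ANGPTL4, PDK1, MXI1 and NDRG1 at one stage or more.

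**Figure D2:**
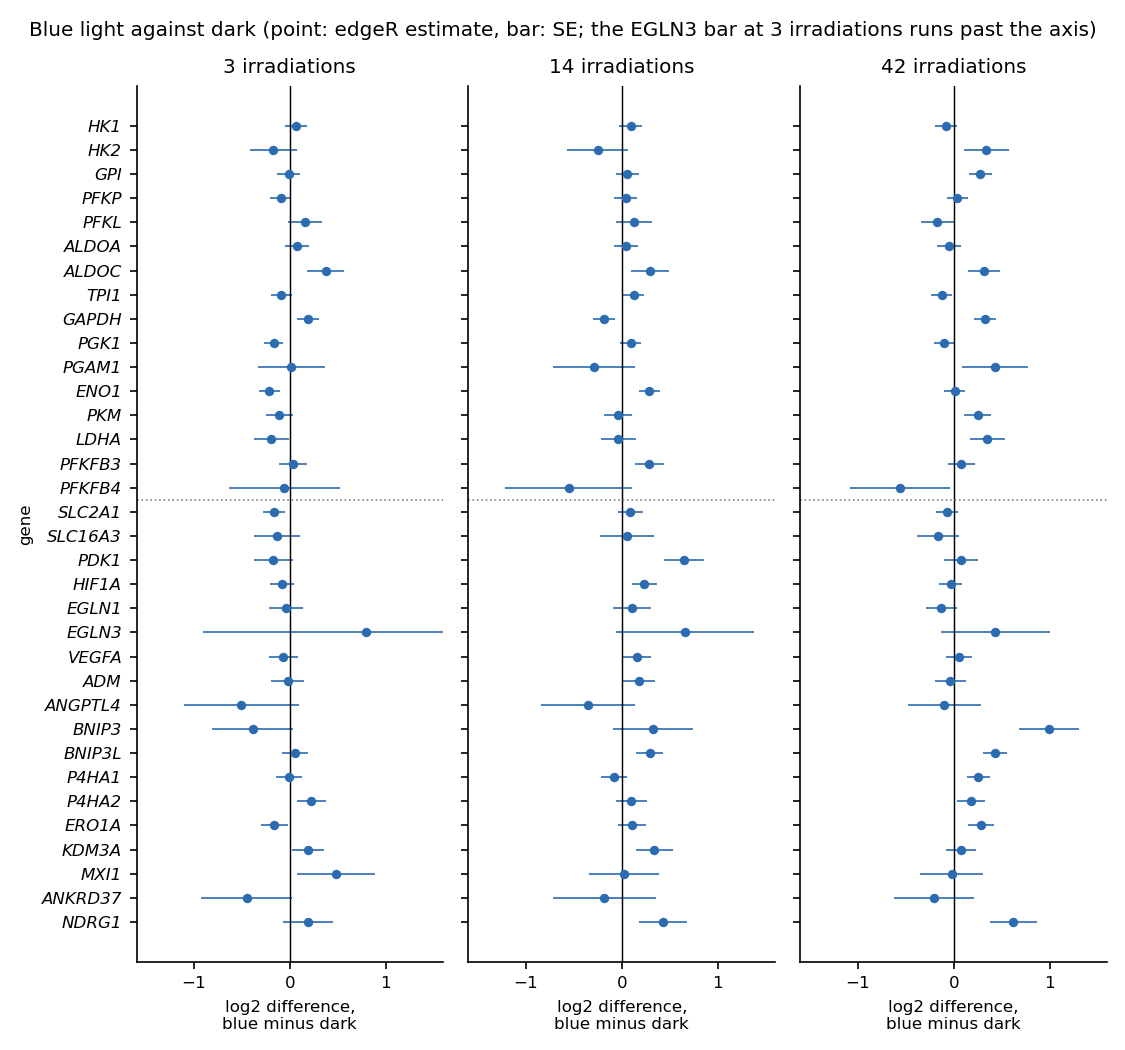
Log2 difference between irradiated and dark cultures (x axis) for the 34 tested members (y axis) after 3, 14 and 42 irradiations, with the edgeR estimate as a point and its SE as a bar. Most points lie near 0 at each stage, and BNIP3 at 0.99 and NDRG1 at 0.62 after 42 irradiations lie farthest to the right in that panel.

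After 42 irradiations the smallest p-values among the members were those of the 2 mitophagy receptors and of GAPDH. BNIP3L (ENSG00000104765), which marks mitochondria for removal by autophagy, stood at 42.4 and 51.1 CPM in dark_42 a and b and at 60.04 and 65.8 CPM in blue_42 a and b. Both irradiated libraries were above both dark ones, with a log2 difference of 0.43 ± 0.12 that did not pass (edgeR adjusted p = 0.0949, 95% interval 0.17 to 0.69). BNIP3 (ENSG00000176171, chromosome 10, 131966455 to 131982013, minus strand), its close relative, stood at 3.97 and 2.73 CPM in dark_42 and 5.81 and 7.53 CPM in blue_42. These values rest on 52 and 107 counts in all, a ratio of 2 with an exact counting interval of 1.42 to 2.84. The log2 difference was 0.99 ± 0.31 (edgeR adjusted p = 0.136), and 47 annotated near-copies of BNIP3 together held 12.8% as many counts. GAPDH, the glycolytic dehydrogenase often used as a reference gene, stood at 1327 and 1390 CPM in dark_42 and 1769 and 1641 CPM in blue_42, without overlap, at 0.33 ± 0.12 (edgeR adjusted p = 0.192, 95% interval 0.09 to 0.57).

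NDRG1, a stress protein that is a standard marker of hypoxic cells, was called after 42 irradiations in some alternative fits. It is named for that reason. Its libraries stood at 48.3 and 65.5 CPM in dark_42 and 78.8 and 96.3 CPM in blue_42. The difference of 0.62 ± 0.25 (edgeR adjusted p = 0.304) became a call with no filter on low counts (adjusted p = 0.000954) and with the libraries of series 3 and 42 alone (adjusted p = 0.0365). LDHA, which makes lactate from pyruvate, stood at 671 and 448 CPM in dark_42, a wide spread, and 711 and 714 CPM in blue_42. It had a difference of 0.35 ± 0.18 (edgeR adjusted p = 0.438), and without dark_42 a this rose to 0.67 and was called. GPI, P4HA1 and ERO1A also had unadjusted p under 0.05 after 42 irradiations, at 0.28 ± 0.12, 0.26 ± 0.12 and 0.29 ± 0.14, with edgeR adjusted p = 0.303, 0.368 and 0.374.

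At the earlier stages the leading members were others. After 14 irradiations PDK1, a kinase that inhibits pyruvate dehydrogenase, stood at 10.9 and 11.9 CPM in dark_14 and 18.7 and 17.2 CPM in blue_14. Its log2 difference was 0.65 ± 0.21 (edgeR adjusted p = 0.767). ENO1, the enolase of lower glycolysis, stood at 1235 and 1301 CPM in dark_14 and 1581 and 1512 CPM in blue_14, at 0.29 ± 0.11 (edgeR adjusted p = 0.804). Irradiated libraries of both genes were above the dark ones at this stage, and those of BNIP3L were too, at 0.29 ± 0.14 (edgeR adjusted p = 0.834). After 3 irradiations ENO1 was lower in both irradiated libraries, at 1614 and 1702 CPM against 1896 and 1955 CPM in dark_3, a difference of -0.22 ± 0.11 (edgeR adjusted p = 0.733). PGK1, which makes ATP from 1,3-bisphosphoglycerate, stood at 274 and 266 CPM in blue_3 and 309.6 and 298 CPM in dark_3, a difference of -0.17 ± 0.10 (edgeR adjusted p = 0.774). The aldolase ALDOC differed the other way, with 14.4 and 16.2 CPM in blue_3 and 12.7 and 10.9 CPM in dark_3, at 0.37 ± 0.20 (edgeR adjusted p = 0.733). None of these differences passed.

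The best-known genes of the pathway gave intervals that include 0 at every stage. For HIF1A, which encodes HIF-1α itself, the log2 difference between irradiated and dark cultures was -0.09 ± 0.12, 0.24 ± 0.13 and -0.03 ± 0.12 after 3, 14 and 42 irradiations (edgeR adjusted p = 0.915, 0.849 and 0.950), the widest interval being -0.04 to 0.51. For VEGFA, the main growth factor of blood vessels, it was -0.07 ± 0.15, 0.15 ± 0.15 and 0.06 ± 0.13 (edgeR adjusted p = 0.943, 0.923 and 0.907). SLC2A1, the glucose transporter GLUT1, stood at 60.2 and 54.0 CPM in dark_3, 50.1 and 54.3 in dark_14 and 52.6 and 53.5 in dark_42. In irradiated cultures it stood at 51.8 and 50.0 CPM in blue_3, 55.4 and 56.3 in blue_14 and 53.1 and 48.2 in blue_42. Irradiated libraries lay below the dark ones after 3 irradiations and above them after 14, and the groups overlapped after 42. Its log2 difference was -0.16 ± 0.12, 0.09 ± 0.13 and -0.07 ± 0.11 (edgeR adjusted p = 0.823, 0.953 and 0.865). For LDHA it was -0.19 ± 0.18 and -0.04 ± 0.18 at the first 2 stages (edgeR adjusted p = 0.866 and 0.991). Such intervals do not show that the cultures were alike. CA9, the carbonic anhydrase used as a marker of tumour hypoxia, had 13 counts over all 12 libraries, with 0 and 3 in dark_3 a and b, 1 and 0 in blue_3, 1 and 0 in dark_14, 1 and 2 in blue_14, 0 and 1 in dark_42 and 2 and 2 in blue_42. A count of 0 allows up to 0.476 CPM in dark_3 a, 0.486 in blue_3 b, 0.383 in dark_14 b and 0.384 in dark_42 a, by counting error only, so no order of its levels can be read. ARHGEF39 on the opposite strand had 8850% as many counts.

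Whether the light effect itself changed between stages was tested as a difference of differences. No member was called between 14 and 3, 42 and 3, or 42 and 14 irradiations, where 0.0388%, 0.435% and 0.0544% of all tested genes were, and DESeq2 called none either. At an unadjusted p under 0.05 the counts were 3, 2 and 2 of 34. Between 14 and 3 irradiations these were ENO1 at 0.50 ± 0.16 (edgeR adjusted p = 0.335), PDK1 at 0.82 ± 0.29 (edgeR adjusted p = 0.425) and GAPDH at -0.38 ± 0.16 (edgeR adjusted p = 0.573). The signs follow the levels given above, since ENO1 was lower with light after 3 irradiations and higher after 14. Between 42 and 3 irradiations they were BNIP3 at 1.38 ± 0.53 (edgeR adjusted p = 0.320) and ERO1A at 0.45 ± 0.20 (edgeR adjusted p = 0.388), and between 42 and 14 GAPDH at 0.52 ± 0.16 (edgeR adjusted p = 0.383) and PDK1 at -0.57 ± 0.27 (edgeR adjusted p = 0.608). Of these, ERO1A is named because of its p-value. Without dark_42 a, the change between 42 and 3 irradiations was called for LDHA, at 0.87 (edgeR adjusted p = 0.0451).

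The larger differences lay between the series of cultures. In dark cultures 10 members were higher and 2 lower in series 14 than in series 3, where edgeR called 8.11% of all tested genes higher and 4.61% lower (12.7% in all). In series 42 against 3 they numbered 10 and 3, beside 9.47% and 8.26% of all tested genes (17.7% in all). In irradiated cultures 10 were higher and 1 lower in series 14, beside 3.62% and 2.6% (6.22% in all), and 11 and 1 in series 42, beside 4.4% and 3.39% (7.78% in all). Calls for the 18 tested HIF pathway genes were all higher, with 9, 7, 8 and 10 in these 4 comparisons, while the 16 glycolytic and PFKFB genes had 1, 3, 2 and 1 higher and 2, 3, 1 and 1 lower. The median log2 difference of the HIF pathway genes was 0.49, 0.39, 0.69 and 0.60 and that of the glycolytic group -0.12, -0.06, -0.06 and 0.11, beside 0.02, 0.02, 0.01 and -0.00 for all tested genes. Libraries did not overlap for 16 members higher and 9 lower in dark_14 (beside 32.9% and 30% of all tested genes, 62.8% in all) and for 18 and 8 in dark_42 (32.7% and 29.7%, 62.4% in all). The counts were 20 and 4 in blue_14 (25.6% and 25.5%, 51.2% in all) and 21 and 3 in blue_42 (26.4% and 25.8%, 52.2% in all).

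Each series is 1 set of cultures with its own number of irradiations and weeks of culture, and these and anything else that differed between the sets cannot be told apart. Dark and irradiated cultures share no library, and 7 members were called in both in series 14 and 8 in series 42, each the same way. EGLN3, which passed the filter on low counts only through later libraries, is among them in both series. Of all tested genes 3.32% and 4.83% were called in both, whether or not in the same direction. The 2 comparisons with series 3 within dark cultures share the dark_3 libraries, and those within irradiated cultures share blue_3. Leaving out 1 library lowered the counts by 1.5 times or more in the following cases. In dark cultures they fell to 3 and 2 in series 14 without dark_3 a or b and to 2 without dark_14 a, and to 3 in series 42 without dark_3 a or b and 2 without dark_42 b. In irradiated cultures they fell to 4 and 3 in series 14 without blue_3 a or b and 2 without blue_14 b, and to 5 and 4 in series 42 without blue_3 a or b 4 without blue_42 b and 8 without blue_42 a. A group is then left with 1 library, which is taken to vary like the other groups. Counts thinned to the smallest library ended the calls of ALDOC, ADM, ANGPTL4, BNIP3L, P4HA1 and P4HA2 in dark_14, of GPI, ALDOC, HIF1A, ADM, ANGPTL4, BNIP3L and MXI1 in dark_42, of ALDOC, PFKFB3 and PDK1 in blue_14, and of ALDOC, PDK1, ADM, ANGPTL4 and BNIP3 in blue_42. A fit on the compared libraries alone ended those of ANGPTL4 in dark_42 and of GAPDH, PFKFB3, P4HA1 and ERO1A in blue_14. With thinned counts EGLN3 did not pass the filter on low counts, so its calls ended in every comparison with series 3. It did not pass with the compared libraries alone either in dark_14, dark_42 and blue_14.

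**Figure D3:**
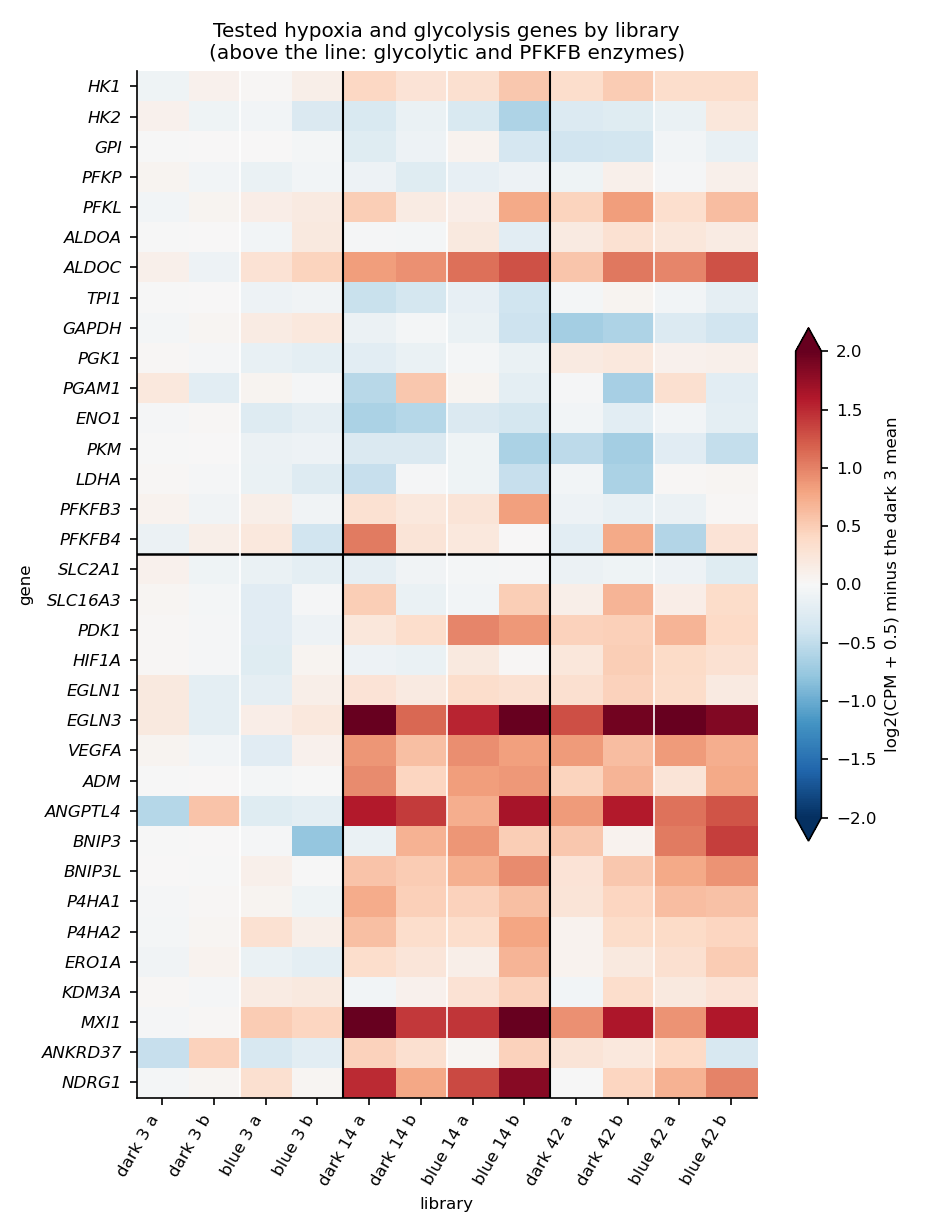
Level of each of the 34 tested members (y axis) in each of the 12 libraries (x axis), as log2(CPM + 0.5) minus the mean of dark_3, from blue (lower) to red (higher) with colours that end at -2 and 2. Rows below the line, the HIF pathway genes, are mostly red in series 14 and 42, while rows above it, the glycolytic and PFKFB enzymes, hold both colours.

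**Figure D4:**
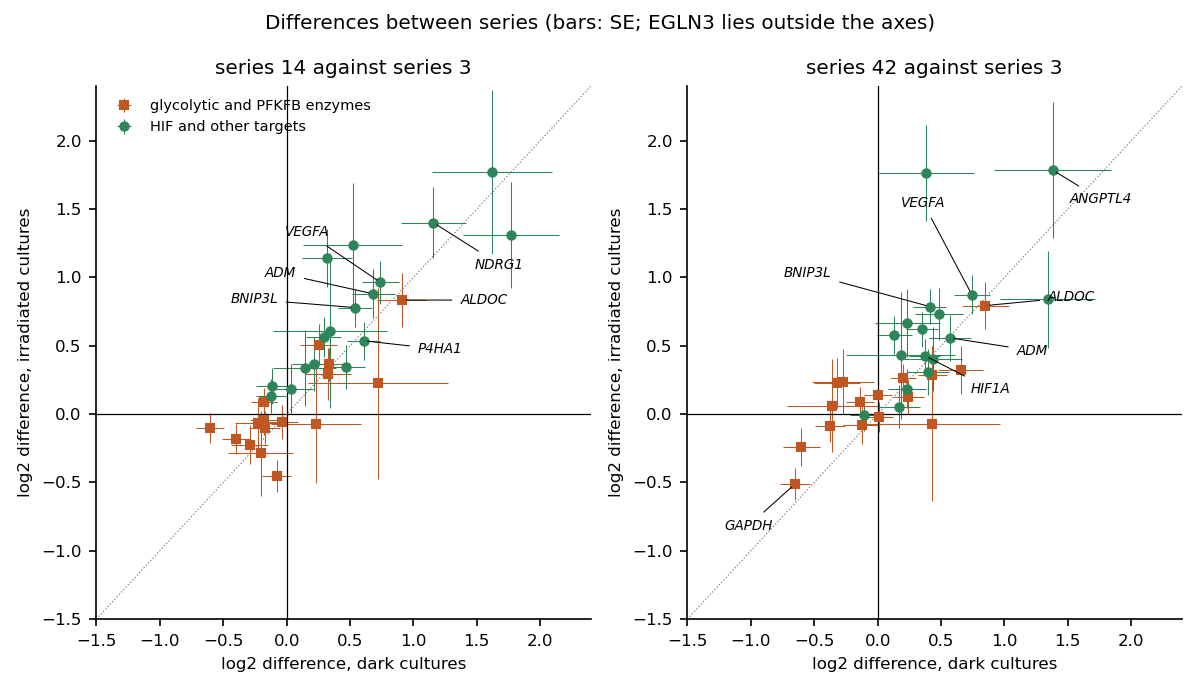
Log2 difference of series 14 (left) and series 42 (right) from series 3 in dark cultures (x axis) and irradiated cultures (y axis), with SE bars. Squares are glycolytic and PFKFB enzymes and circles the HIF pathway genes, and names mark members called in both dark and irradiated cultures. Circles lie mostly in the upper right, GAPDH lies lower left in series 42, and EGLN3 lies outside the axes.

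Among the glycolytic enzymes, taken in the order of the pathway, the early steps moved in different directions. HK1, the hexokinase of most tissues, was called higher in dark_42 than in dark_3 at 0.43 ± 0.11 (edgeR adjusted p = 0.0128), and GPI, which converts glucose 6-phosphate to fructose 6-phosphate, was called lower in the same comparison at -0.38 ± 0.12 (edgeR adjusted p = 0.0340). HK1 stood at 85.0 and 94.8 CPM in dark_3 and at 115 and 128 CPM in dark_42, and GPI at 364 and 367 and 281 and 283 CPM. PFKL, a phosphofructokinase, was called higher there too, at 0.66 ± 0.18 (edgeR adjusted p = 0.0181), with 56.0 and 60.2 CPM in dark_3 and at 79.3 and 104 CPM in dark_42. In irradiated cultures these 3 genes differed between series 42 and 3 by 0.28 ± 0.11, -0.08 ± 0.12 and 0.32 ± 0.18, without a call. HK2, at 4.30 to 8.13 CPM over the 12 libraries and with 78.1% as many counts in AC019069.1 on the opposite strand, PFKP, at 122 to 156 CPM, and ALDOA, at 529 to 749 CPM, were called in no comparison. All 3 calls in dark_42 were lost without dark_3 a, dark_3 b or dark_42 b, where HK1 ran from 0.35 to 0.51, GPI from -0.40 to -0.37 and PFKL from 0.45 to 0.83 over the fits without 1 library, and that of GPI also without dark_42 a.

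ALDOC (ENSG00000109107, chromosome 17, 28573115 to 28577264, minus strand), the aldolase first known from brain, was the only glycolytic enzyme called higher in all 4 comparisons with series 3. It stood at 12.7 and 10.9 CPM in dark_3, 21.5 and 22.6 in dark_14 and 17.5 and 25.0 in dark_42. With light the values were 14.4 and 16.2 CPM in blue_3, 25.9 and 29.1 in blue_14 and 23.8 and 29.1 in blue_42. Every later library lay above both libraries of series 3 with the same light. The log2 differences in dark cultures were 0.91 ± 0.19 (edgeR adjusted p = 0.00468) in series 14 and 0.85 ± 0.19 (edgeR adjusted p = 0.00363) in series 42. In irradiated cultures they were 0.83 ± 0.20 (edgeR adjusted p = 0.0178) and 0.79 ± 0.17 (edgeR adjusted p = 0.00741). Without 1 library the difference ran from 0.57 to 1.08 over the 4 comparisons, and a call was lost without dark_3 b, dark_42 b, blue_3 a or b, blue_14 b or blue_42 b in one of them or more. The window before its start held 5 matches of the motifs above.

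GAPDH (ENSG00000111640, chromosome 12, 6533927 to 6538374, plus strand) was the only member called lower in 3 of these comparisons. Its level was 2072 and 2202 CPM in dark_3, 1969 and 2079 in dark_14 and 1327 and 1390 in dark_42. In irradiated cultures it was 2392 and 2475 CPM in blue_3, 1949 and 1603 in blue_14 and 1769 and 1641 in blue_42. The libraries of dark_14 overlapped those of dark_3 and those of dark_42 were the lowest of all, while both libraries of blue_14 and of blue_42 lay below blue_3. The log2 difference from series 3 was -0.65 ± 0.12 (edgeR adjusted p = 0.000655) in dark_42, -0.45 ± 0.12 (edgeR adjusted p = 0.0257) in blue_14 and -0.51 ± 0.12 (edgeR adjusted p = 0.00888) in blue_42, and -0.08 ± 0.12 (edgeR adjusted p = 0.713) in dark_14, which was not called. GAPDH was also lower in dark_42 than in dark_14, at -0.58 ± 0.12 (edgeR adjusted p = 0.00472). In dark cultures both calls held in all 12 fits without 1 library (-0.70 to -0.61 against series 3), while the call in blue_14 was lost without any 1 library of series 3 or blue_14 b (-0.61 to -0.33) and that in blue_42 without blue_3 b or blue_42 b (-0.58 to -0.46). Its 66 annotated near-copies held 0.0321% as many counts.

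**Figure D5:**
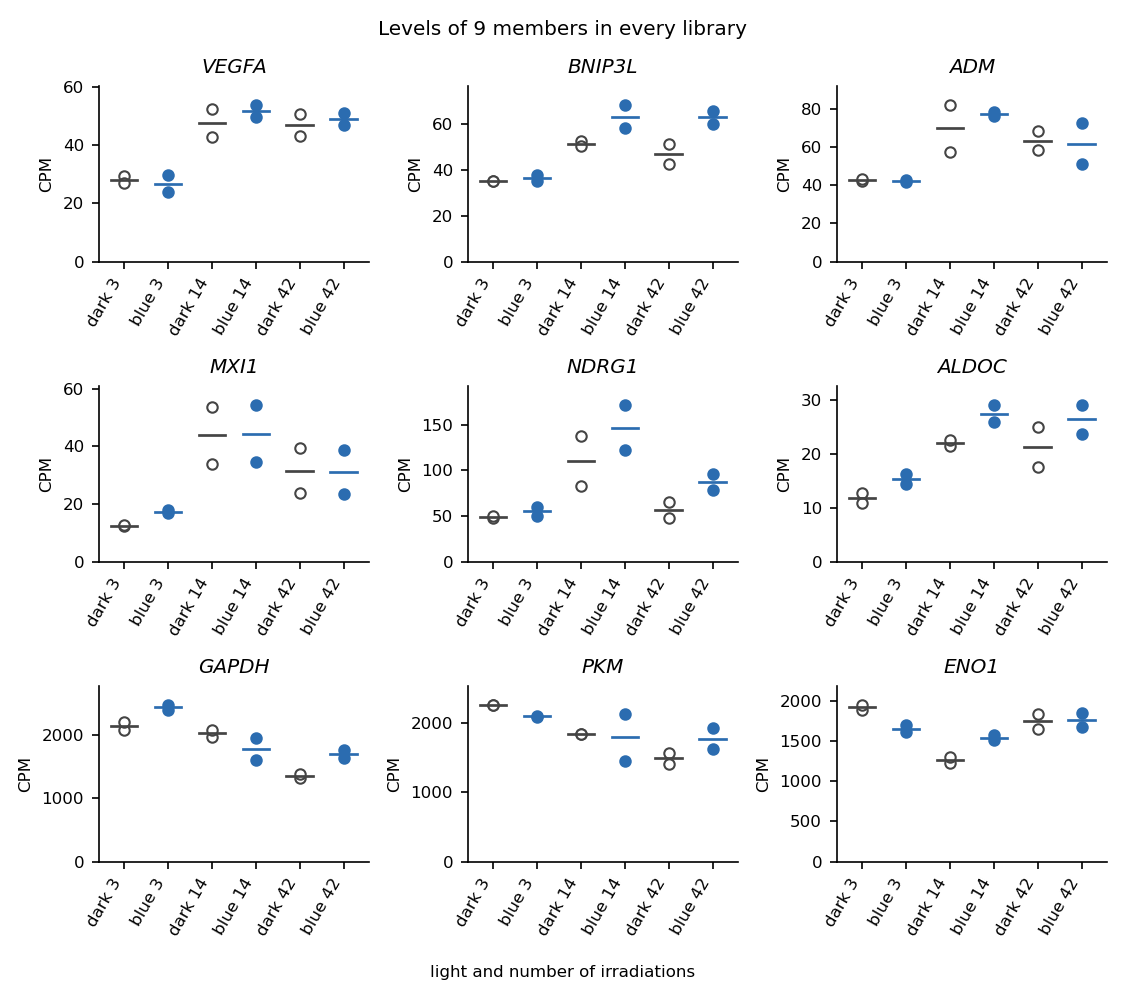
CPM (y axis, from 0) of 9 members in the 6 groups (x axis), with open circles for dark and filled circles for irradiated libraries and a line at each group mean of 2. VEGFA, BNIP3L, ADM, MXI1 and ALDOC are lowest in series 3, whereas GAPDH and PKM have their highest libraries there.

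ENO1, TPI1, PGK1 and PKM, of lower glycolysis, were called between series in dark cultures and not in irradiated ones, although no difference between dark and irradiated cultures in this respect, which is the change in the light effect above, was called. ENO1 (ENSG00000074800, chromosome 1, 8861000 to 8879250, minus strand) stood at 1896 and 1955 CPM in dark_3, 1235 and 1301 in dark_14 and 1846 and 1659 in dark_42. It was lowest in dark_14, without overlap with either other dark group, at -0.60 ± 0.11 (edgeR adjusted p = 0.00163) from dark_3 and 0.47 ± 0.11 (edgeR adjusted p = 0.0132) in dark_42 against dark_14. Against series 3 the call held in all 12 fits without 1 library, and the other was lost without dark_14 a or dark_42 a (0.39 to 0.54). TPI1, which interconverts the 3-carbon sugars, was also lowest in dark_14, with 386 and 393, 285 and 306 and 379.6 and 406 CPM in dark_3, dark_14 and dark_42. Its differences were -0.40 ± 0.11 (edgeR adjusted p = 0.0230) from series 3 to 14 and 0.41 ± 0.11 (edgeR adjusted p = 0.0278) from 14 to 42. PGK1, with 309.6 and 298, 261 and 276 and 345 and 352 CPM in the same groups, was called between dark_42 and dark_14 at 0.38 ± 0.10 (edgeR adjusted p = 0.0307). These calls were sensitive to single libraries. TPI1 lost the first without dark_3 a, dark_3 b or dark_14 a (-0.45 to -0.37) and the second without either library of dark_3, either of dark_14 or dark_42 b (0.36 to 0.46), and PGK1 lost its call without any 1 of the 6 dark libraries (0.34 to 0.41).

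PKM, the pyruvate kinase that ends glycolysis, stood at 2246 and 2255 CPM in dark_3, 1833 and 1842 in dark_14 and 1566 and 1402 in dark_42. Its dark libraries were lower in each later series without overlap, and the difference of dark_42 from dark_3 was -0.60 ± 0.14 (edgeR adjusted p = 0.00647), lost without dark_3 a, dark_3 b or dark_42 b (-0.69 to -0.52). In irradiated cultures PKM stood at 2082 and 2093 CPM in blue_3, 2123 and 1450 in blue_14 and 1917 and 1618 in blue_42, where blue_14 a lay above and blue_14 b far below both libraries of blue_3. LDHA was called in no comparison and stood at 709 and 685 CPM in dark_3, 504 and 687 in dark_14 and 671 and 448 in dark_42. The irradiated libraries held 632 and 586 CPM in blue_3, 657 and 505 in blue_14 and 711 and 714 in blue_42. Libraries a and b lay far apart in dark_14, blue_14 and dark_42, and without dark_42 a LDHA was lower in dark_42 than in dark_3 by -0.64 (edgeR adjusted p = 0.0115). PGAM1 had 2.60 to 6.64 CPM, and its 13 annotated near-copies held 74.4% as many counts, so its level is uncertain. Of the PFKFB enzymes, which make the activator of phosphofructokinase, PFKFB3 was called higher in blue_14 than in blue_3 at 0.51 ± 0.15 (edgeR adjusted p = 0.0483), with 74.7 and 111 against 68.3 and 59.7 CPM, a call lost without blue_14 b or any library of series 3, dark_14 or blue_42 (0.21 to 0.78), in DESeq2 and with a replicate block. PFKFB4 had 0.775 to 3.44 CPM and no call.

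In dark cultures 5 members differed between series 42 and 14, where 7.04% of all genes were called. The 4 higher in series 42 were ENO1, TPI1, PGK1 and HIF1A, and the 1 lower was GAPDH, where 1.81% of all genes were called higher and 5.23% lower. This count was 1 in a fit on the compared libraries alone and 1 without dark_14 a, 2 without dark_42 b, and 3 without dark_3 a, dark_3 b, dark_14 b or dark_42 a, GAPDH being called in all of these. In irradiated cultures no member was called between series 42 and 14, where 0.241% of all genes were. DESeq2 also called 0, and an unadjusted p under 0.05 was found for 3 of 34. These 3 were PFKFB3, NDRG1 and PDK1, at -0.59 ± 0.15, -0.73 ± 0.25 and -0.41 ± 0.19.

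At the entry and exit of the pathway little was called. SLC2A1, at 48.2 to 60.2 CPM over all 12 libraries, was called nowhere. SLC16A3, the lactate exporter MCT4, had 9.93 to 19.0 CPM and no call, and it overlaps CSNK1D on the opposite strand, which had 499% as many counts. How the counting treated strands is not given in these sources, so reads of overlapping genes may be mixed. PDK1 (ENSG00000152256, chromosome 2, 172555373 to 172608669, plus strand) stood at 9.35 and 9.07 CPM in dark_3, 10.9 and 11.9 in dark_14 and 12.8 and 13.0 in dark_42. In irradiated cultures it stood at 7.82 and 8.58 CPM in blue_3, 18.7 and 17.2 in blue_14 and 15.0 and 12.3 in blue_42. The libraries of blue_14 were higher than all others, and the differences from series 3 were 1.14 ± 0.21 (edgeR adjusted p = 0.00396) and 0.73 ± 0.19 (edgeR adjusted p = 0.0199) in irradiated cultures and 0.32 ± 0.20 (edgeR adjusted p = 0.319) and 0.49 ± 0.19 (edgeR adjusted p = 0.0773) in dark ones. The call in blue_14 held in all 12 fits without 1 library, and that in blue_42 was lost without blue_3 a, blue_3 b or blue_42 a (0.57 to 0.87) and in DESeq2. CA12, which with CA9 buffers pH at the cell surface, had 0.256 to 2.39 CPM.

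HIF1A (ENSG00000100644, chromosome 14, 61695513 to 61748259, plus strand) was higher in series 42 with and without light. It stood at 101 and 99.2 CPM in dark_3, 93.9 and 91.3 in dark_14 and 118 and 142 in dark_42. With light the values were 84.6 and 105 CPM in blue_3, 115 and 102 in blue_14 and 130.4 and 124 in blue_42. Both libraries of dark_42 and of blue_42 lay above those of the earlier series with the same light. The differences from series 3 were 0.37 ± 0.12 (edgeR adjusted p = 0.0410) and 0.43 ± 0.12 (edgeR adjusted p = 0.0367), and dark_42 differed from dark_14 by 0.49 ± 0.12 (edgeR adjusted p = 0.0215). These calls held in 5, 7 and 9 of 12 fits without 1 library. The one in dark_42 against dark_3 was lost without either library of dark_3, dark_14 or blue_42 or without dark_42 b (0.23 to 0.49), that in blue_42 without either library of dark_3 or blue_42 or without blue_3 a (0.26 to 0.59), and that against dark_14 without either library of dark_14 or without dark_42 b (0.35 to 0.61). DESeq2 called neither difference from series 3. In series 14 the differences from series 3 were -0.12 ± 0.13 and 0.21 ± 0.13, without a call. HIF is controlled mainly at its protein, which was not measured.

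The hydroxylases that mark HIF-1α for destruction include EGLN1 and EGLN3. EGLN1 stood at 14.1 to 22.5 CPM and had no call. EGLN3 had 1 count in dark_3 and 2 in blue_3, against 15 in dark_14, 12 in blue_14, 20 in dark_42 and 28 in blue_42. It passed the filter on low counts only through later libraries, where it is high, so its calls are not independent of that filter. They are included in the counts of called members above. The ratio to series 3 was 17.6 (95% counting interval 2.7 to 739) in dark_14, 17.1 (2.74 to 709) in dark_42, 14.8 (3.29 to 136) in blue_14 and 12 (3.03 to 104) in blue_42. edgeR called all 4 comparisons (adjusted p = 0.0301, 0.0216, 0.0349 and 0.0241), DESeq2 none, and each call was lost without either library of series 3 with the same light, and also without dark_14 a, dark_42 b, blue_14 b, or blue_42 a or b, in the comparison that each is part of. The fitted log2 difference ran from 2.99 to 6.15 in dark_14 and from 2.87 to 6.04 in dark_42 over the fits without 1 library, highest where dark_3 b, with 0 counts, was left alone. The annotated span of EGLN3 holds SPTSSA on the same strand, which had 2380% as many counts and log2 differences of -0.19, -0.46, 0.71 and 0.46 in these comparisons, and it was called in dark_42 and blue_14 (edgeR adjusted p = 0.0383 and 0.0174).

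The 3 secreted products were higher in later series almost throughout. VEGFA (ENSG00000112715, chromosome 6, 43770184 to 43786487, plus strand) stood at 29.2 and 26.8 CPM in dark_3, 52.1 and 42.5 in dark_14 and 50.6 and 43.0 in dark_42. The irradiated libraries held 23.8 and 29.6 CPM in blue_3, 53.7 and 49.7 in blue_14 and 50.7 and 46.7 in blue_42. All 8 later libraries lay above all 4 of series 3. The log2 differences were 0.74 ± 0.15 (edgeR adjusted p = 0.00321) and 0.74 ± 0.14 (edgeR adjusted p = 0.00130) in dark cultures, and 0.96 ± 0.16 (edgeR adjusted p = 0.00134) and 0.87 ± 0.14 (edgeR adjusted p = 0.000596) in irradiated ones. VEGFA kept its call in all 12 fits without 1 library for 3 of these comparisons, and it lost that of dark_14 without dark_3 b or dark_14 a (0.58 to 0.90).

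ADM, the vasodilator peptide adrenomedullin, stood at 42.2 and 43.1 CPM in dark_3, 82.2 and 57.4 in dark_14 and 58.3 and 68.3 in dark_42. In irradiated cultures it stood at 41.5 and 42.6 CPM in blue_3, 76.4 and 78.3 in blue_14 and 51.0 and 72.5 in blue_42. The libraries of series 3 were close to each other, while dark_14 and blue_42 spread widely above them. The differences were 0.68 ± 0.17 (edgeR adjusted p = 0.0152) and 0.57 ± 0.17 (edgeR adjusted p = 0.0248) in dark cultures, and 0.88 ± 0.18 (edgeR adjusted p = 0.00900) and 0.56 ± 0.17 (edgeR adjusted p = 0.0481) in irradiated ones. The call in blue_42 held in 5 of 12 fits without 1 library (0.28 to 0.77) and was lost without blue_42 b or any library of series 3 or blue_14. It was also lost with RLE scaling, in DESeq2, with the filter at 5 CPM and with a replicate block. Each of the other 3 was lost without either library of series 3 with the same light and without dark_14 a (0.41 to 0.94), dark_42 b (0.45 to 0.68) or blue_14 b (0.84 to 0.89), in the order given.

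ANGPTL4, an inhibitor of lipoprotein lipase, stood at 0.634 and 2.02 CPM in dark_3, 4.58 and 3.96 in dark_14 and 2.56 and 4.55 in dark_42. With light the values were 0.927 and 0.971 CPM in blue_3, 2.30 and 4.78 in blue_14 and 3.10 and 3.52 in blue_42. These levels rest on 13 to 55 counts a group, and every later library lay above those of series 3 with the same light. The differences were 1.62 ± 0.47 (edgeR adjusted p = 0.0292), 1.38 ± 0.46 (edgeR adjusted p = 0.0428), 1.77 ± 0.60 (edgeR adjusted p = 0.0845) and 1.79 ± 0.49 (edgeR adjusted p = 0.0308), in the same order, of which edgeR called all but blue_14 and DESeq2 none. With no filter on low counts edgeR also called the one in blue_14, at 1.74 (adjusted p = 0.0425). Without dark_3 a the dark differences were 1.04 and 0.81 and not called. The call in dark_14 was also lost without either library of dark_14, that in dark_42 without dark_42 b or either library of blue_3 or blue_42, and that in blue_42 without either library of blue_3 or blue_42 (1.04 to 2.68, 0.81 to 2.45 and 1.69 to 1.86). RAB11B-AS1, on the opposite strand, had 185% as many counts and no call in these comparisons.

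Of the mitophagy receptors, BNIP3L was called in all 4 comparisons with series 3. It stood at 35.2 and 35.1 CPM in dark_3, 52.4 and 50.2 in dark_14 and 42.4 and 51.1 in dark_42. The irradiated libraries held 37.9 and 35.0 CPM in blue_3, 58.0 and 68.3 in blue_14 and 60.04 and 65.8 in blue_42. Every later library was above all 4 of series 3, and irradiated libraries of series 14 and 42 were above the dark ones. The differences were 0.54 ± 0.13 (edgeR adjusted p = 0.0121) and 0.41 ± 0.13 (edgeR adjusted p = 0.0337) in dark cultures, and 0.78 ± 0.14 (edgeR adjusted p = 0.00278) and 0.79 ± 0.13 (edgeR adjusted p = 0.000540) in irradiated ones. The call in blue_42 held in all 12 fits without 1 library, and that in blue_14 was lost without blue_14 b (0.66 to 0.90). In dark cultures both were lost without dark_3 a or b, that in series 14 also without dark_14 a (0.49 to 0.57) and that in series 42 also without dark_42 b or either library of blue_42 (0.27 to 0.54) and in DESeq2. BNIP3 stood at 2.54 and 2.59 CPM in dark_3, 2.29 and 4.47 in dark_14 and 3.97 and 2.73 in dark_42. Its irradiated libraries held 2.52 and 1.295 CPM in blue_3, 5.17 and 3.82 in blue_14 and 5.81 and 7.53 in blue_42, where blue_42 lay above all other groups. It was called in blue_42 against blue_3, at 1.76 ± 0.35 (edgeR adjusted p = 0.00364), a call lost without blue_3 b or blue_42 b (1.40 to 2.33).

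The prolyl hydroxylases of collagen, P4HA1 and P4HA2, and ERO1A, which oxidizes proteins in the endoplasmic reticulum, were above series 3 in most libraries. P4HA1 stood at 36.5 and 37.9 CPM in dark_3 a and b, 38.8 and 35.0 CPM in blue_3 a and b, and at 44.7 to 62.7 CPM in the 8 later libraries, which did not overlap with series 3. It was called in dark_14 at 0.61 ± 0.13 (edgeR adjusted p = 0.00513), blue_14 at 0.54 ± 0.14 (edgeR adjusted p = 0.0277) and blue_42 at 0.62 ± 0.13 (edgeR adjusted p = 0.00409), while the difference in dark_42 was 0.35 ± 0.13 (edgeR adjusted p = 0.0619). Its calls were lost without dark_3 a, dark_3 b or dark_14 a in dark_14 (0.46 to 0.75), without dark_3 a, blue_3 a, blue_3 b or blue_14 b in blue_14 (0.46 to 0.60) and without blue_3 b in blue_42 (0.55 to 0.68). ERO1A stood at 88.5 and 97.2 CPM in dark_3, 118 and 109.6 in dark_14 and 97.1 and 106 in dark_42. In irradiated cultures it stood at 84.6 and 81.3 CPM in blue_3, 100.3 and 148 in blue_14 and 116 and 132 in blue_42. It was called in irradiated cultures, at 0.56 ± 0.15 (edgeR adjusted p = 0.0276) and 0.58 ± 0.14 (edgeR adjusted p = 0.0134), and not in dark ones, at 0.29 ± 0.14 (edgeR adjusted p = 0.186) and 0.13 ± 0.14 (edgeR adjusted p = 0.555). The difference between dark and irradiated cultures in this was 0.27 ± 0.20 (edgeR adjusted p = 0.785) in series 14 and 0.45 ± 0.20 (edgeR adjusted p = 0.388) in series 42, also not called. Both calls were lost without blue_3 a or b, and without blue_14 b (0.26 to 0.83) or blue_42 b (0.48 to 0.66), in the order given. P4HA2 was called in dark_14 at 0.47 ± 0.15 (edgeR adjusted p = 0.0477), a call lost in DESeq2, with RLE scaling, with the filter at 5 CPM and with a replicate block. It was also lost without dark_3 a, dark_3 b, dark_14 a or either library of blue_3 or blue_42 (0.33 to 0.61). PDLIM4 on the opposite strand, with 350% as many counts, differed by 0.45 ± 0.15 (edgeR adjusted p = 0.0616) there.

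Of the nuclear regulators, MXI1 (ENSG00000119950, chromosome 10, 110207605 to 110287365, plus strand), which antagonizes MYC, was called in dark cultures. It stood at 12.2 and 12.7 CPM in dark_3, 53.8 and 34.0 in dark_14 and 23.9 and 39.3 in dark_42. With light the values were 17.9 and 16.8 CPM in blue_3, 34.5 and 54.4 in blue_14 and 23.5 and 38.6 in blue_42. All 8 later libraries were above all 4 of series 3, and the 2 libraries of each later group differed widely. The differences were 1.77 ± 0.38 (edgeR adjusted p = 0.0194) and 1.34 ± 0.37 (edgeR adjusted p = 0.0398) in dark cultures, both lost without dark_3 a or b, that in series 14 also without dark_14 a (1.43 to 2.11) and that in series 42 also without dark_42 b or either library of blue_3 (0.94 to 1.65). In irradiated cultures they were 1.31 ± 0.39 (edgeR adjusted p = 0.0889) and 0.84 ± 0.35 (edgeR adjusted p = 0.209), not called, although DESeq2 called the one in blue_14 (adjusted p = 0.000571). That difference was also called by edgeR with no filter (adjusted p = 0.00508) and with the compared libraries alone (adjusted p = 0.00193). The one in blue_42 was called by edgeR with the compared libraries alone (adjusted p = 0.0116). KDM3A, a histone demethylase, had 15.8 to 22.9 CPM and no call, and ANKRD37 had 1.27 to 2.88 CPM, no call and 999% as many counts in UFSP2 on the opposite strand.

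NDRG1 was highest in series 14, with and without light. It stood at 47.2 and 49.5 CPM in dark_3, 137 and 82.9 in dark_14 and 48.3 and 65.5 in dark_42. The irradiated libraries held 60.3 and 49.7 CPM in blue_3, 122 and 172 in blue_14 and 78.8 and 96.3 in blue_42. All 4 libraries of series 14 lay above all 4 of series 3, and those of series 42 overlapped both. The differences of series 14 from series 3 were 1.16 ± 0.26 (edgeR adjusted p = 0.0173) and 1.40 ± 0.26 (edgeR adjusted p = 0.0148), lost without dark_3 a, dark_3 b or dark_14 a (0.75 to 1.499) in dark cultures and without blue_3 b or blue_14 b (1.13 to 1.63) in irradiated ones. In series 42 the differences from series 3 were 0.23 ± 0.26 (edgeR adjusted p = 0.580) and 0.67 ± 0.25 (edgeR adjusted p = 0.146), and dark_42 differed from dark_14 by -0.92 ± 0.25 (edgeR adjusted p = 0.0550), none of them called in the fit given. The difference of blue_42 from blue_3 was called by DESeq2 and by edgeR with no filter (adjusted p = 0.000102), with the compared libraries alone (0.000433), with series 3 and 42 only (0.00864) and without dark_14 a or b. That of dark_42 from dark_14 was called by DESeq2 and by edgeR with no filter (adjusted p = 4.52e-08) and without dark_14 b or blue_14 a (-1.27 and -0.92).

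The libraries of a group often differed for many HIF pathway genes at once. Of the 18 tested, 14 were higher in dark_14 a than in dark_14 b, 5 in blue_14 a than in blue_14 b and 3 in dark_42 a than in dark_42 b, where 50.5%, 50.2% and 50% of all tested genes were. NDRG1 and MXI1, whose values are given above, were higher in dark_14 a than b and lower in blue_14 a than b. In series 3 the 2 libraries of a group were split about evenly, with 9 of 18 in dark_3 and 8 of 18 in blue_3 higher in a. The depth of these libraries was 3561392 counts in dark_14 a, 7950222 in dark_14 b, 3517401 in blue_14 a and 2073160 in blue_14 b, so the library with the higher levels was the shallower in both groups of series 14. The part of depth in this was not tested.

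Further genes of the pathway, in lists chosen like the members with earlier results known, were counted in the same fits. Of 38 tested other HIF targets, 8 were higher and 0 lower in dark_14 than in dark_3, 6 and 2 in dark_42, 7 and 0 in blue_14 against blue_3 and 6 and 0 in blue_42. Of 13 other components of the pathway the counts were 3 and 0, 2 and 1, 3 and 0, and 2 and 0, of 25 other genes of glycolysis and pyruvate use 2 and 0, 4 and 2, 2 and 0, and 2 and 0, and of 8 genes of the pentose phosphate pathway 0 and 0, 0 and 1, 0 and 0, and 0 and 0. Of all tested genes 8.11% and 4.61%, 9.47% and 8.26%, 3.62% and 2.6%, and 4.4% and 3.39% were called higher and lower, so the 2 of 25 in dark_14, for example, lie near that share. The medians of the other HIF targets were 0.08, 0.24, 0.25 and 0.15, beside the medians of all genes given above. LOXL2, an amine oxidase that crosslinks collagen, and VHL, which recognizes hydroxylated HIF-1α, were called in all 4 comparisons and are named because of those values. LOXL2 held 6.18 and 7.49 CPM in dark_3 a and b, 9.93 and 9.71 CPM in blue_3 a and b and 17.2 to 30.6 CPM in the 8 later libraries, with differences of 1.69 ± 0.26, 1.66 ± 0.25, 1.18 ± 0.27 and 1.44 ± 0.23. VHL stood at 25.8 to 28.98 CPM in series 3 and 35.6 to 50.6 CPM later, with differences of 0.55 ± 0.14, 0.49 ± 0.14, 0.66 ± 0.15 and 0.61 ± 0.14.

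Between light and dark a single gene of these lists was called. PFKFB2, the cardiac form of the PFKFB enzymes, stood at 30.9 and 29.9 CPM in dark_42 and 42.5 and 45.5 CPM in blue_42, a difference of 0.53 ± 0.12 (edgeR adjusted p = 0.0332). Its dark libraries stood at 41.4 and 41.9 CPM in dark_3 and at 37.8 and 36.03 CPM in dark_14, so dark_42 was the lowest group, at -0.45 ± 0.13 (edgeR adjusted p = 0.0169) from dark_3. RBX1, a subunit of the VHL ubiquitin ligase named because of its values, was the only gene of the lists called for a change in the light effect. Its level was 114 and 117 CPM in dark_3 a and b, 108 and 112 in dark_14 and 91.8 and 87.4 in dark_42. In irradiated cultures it was 105 and 80.0 CPM in blue_3, 134 and 133 in blue_14 and 122 and 122 in blue_42. The light effect after 42 irradiations exceeded that after 3 by 0.76 ± 0.17 (edgeR adjusted p = 0.0487). The calls of RBX1, PFKFB2, LOXL2 and VHL were not followed in the alternative fits or with 1 library left out.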

How the data were processed

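Total RNA was extracted with TRIzol and made into QuantSeq 3′ FWD libraries, per the labels' protocols. The deposited values are raw read counts per gene. The tools named for them are STAR and featureCounts and the build is GRCh38, per the submitters' processing notes. Tool versions, the annotation and the strand setting are not given in these sources. Of 45372 genes, 22754 had a count and 12878 passed edgeR's filter on low counts (minimum 10). The filter, TMM scaling and quasi-likelihood tests with a robust spread (edgeR 4.0.16, limma 3.58.1, R 4.3.3) were run on all 12 libraries with 6 group means and 6 residual degrees of freedom, over 12 comparisons, with Benjamini-Hochberg adjustment over all genes tested and calls at an adjusted p under 0.05. The common biological coefficient of variation was 9.41%. Values are CPM of TMM-scaled totals, and errors after ± are SE from the F statistic, with 95% intervals pointwise. At 2073160 to 8183941 counts a library, 3 counts are 0.364 to 1.43 CPM, and counting intervals cover counting error only. Positions come from GENCODE 29.

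The members and the lists of other genes were chosen with earlier results of these data known. In full are given any member called between light and dark, the 3 with the smallest p in each such comparison, up to 5 called members each way in each series comparison, and HIF1A, SLC2A1, LDHA, CA9 and VEGFA. The fits were repeated with RLE scaling, DESeq2 1.42.0, no filter, a filter at 5 CPM and a replicate block. They were also repeated on the compared libraries alone and with each library left out. Single genes outside the members were not followed in these repeats. Fits on the libraries of series 3 and 42 only and on counts thinned to the smallest library were added after the data were seen. The test was also run on simulated counts with changes placed in blue_42 only, and the outcome is not given here. Libraries a and b of a group differed by more than sampling noise in every group.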

Additional observations from a re-analysis of the deposited data

How the results depend on the processing

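Between light and dark, the count of members called stayed at 0 under every alternative after 3 and 14 irradiations, and after 42 it was 1 with no filter and 1 with the libraries of series 3 and 42 only. For series 14 against 3, the count in irradiated cultures fell to 7 with the compared libraries alone and 7 with thinned counts, and in dark cultures to 5 with thinned counts. For series 42 against 3, thinned counts gave 5 in dark and 6 in irradiated cultures. For series 42 against 14, dark cultures gave 1 with the compared libraries alone and 3 with thinned counts, and irradiated ones 2 with no filter (PFKFB3 and NDRG1). Fewer reads remain after thinning, and the cause of the other changes was not tested. With 1 library left out the counts ran from 2 to 13 (dark, 14 against 3), 2 to 14 (dark, 42 against 3), 1 to 7 (dark, 42 against 14), 2 to 13 (irradiated, 14 against 3), 4 to 13 (irradiated, 42 against 3) and 0 to 1 (irradiated, 42 against 14). They ran from 0 to 1 for light against dark after 42 irradiations and for its change from 3 to 42, the 1 being LDHA without dark_42 a. Some differences between light and dark turned sign. With thinned counts these were SLC2A1 at 0.0138 and VEGFA at 0.315 after 3 irradiations, and HIF1A at 0.0635 and SLC2A1 at 0.00648 after 42. With 1 library left out they ran from -0.25 to 0.0602 for HIF1A and -0.23 to 0.0819 for VEGFA after 3 irradiations, from -0.25 to 0.21 for LDHA and -0.00557 to 0.29 for VEGFA after 14, and from -0.15 to 0.11 for HIF1A, -0.14 to 0.00508 for SLC2A1 and -0.0537 to 0.18 for VEGFA after 42. The letters a and b were not used as pairs in the main fit. The a minus b differences of dark and irradiated groups correlated at 0.092, -0.288 and 0.405 in series 3, 14 and 42. These values do not settle whether the letters pair the libraries. With a replicate block the counts were 11 and 13 in dark and 10 and 11 in irradiated cultures against series 3, 5 in dark cultures for 42 against 14, and 0 elsewhere.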
